A study of Drosophila melanogaster with 2 samples.

Results

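Binding sites of the CG12299 protein were examined at 10 genes of the Dpp and EGF signalling pathways in the fruit fly Drosophila melanogaster. The genes were dpp, sog, tkv, put, Mad, Med, shn, brk, Dad and spi, out of 18277 annotated genes. They were selected on measured values, with earlier results of the same peak lists known. Peaks were assigned to a gene when the summit lay inside it or within 5000 bp of one of its transcription start sites (TSSs). By this rule the 10 genes held 26 of the 3672 peaks in the authors' thresholded list. That list was derived from both replicates with a cut on reproducibility. Peaks near these genes are therefore given here as a description without a test.

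The ChIP-seq was made from whole embryos collected over 0 to 24 h. The flies were of a stable transgenic line with CG12299 fused to GFP at the C terminus, and the immunoprecipitation used an antibody against GFP. All samples form 1 group, of 2 biological replicates, and no other condition was studied. The deposited files were a peak list for each replicate, a pooled list called on both, and the thresholded list derived from these 3. Sequencing depth is unknown, as they give scores rather than reads, and the scale of the authors' peak score, signalValue, is specific to each list. In whole embryos, binding in few cells and weak binding in many cells cannot be told apart.

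Dpp is a secreted ligand of the bone morphogenetic protein family that patterns the dorsal side of the embryo and, later, the appendages. It binds receptor kinases that phosphorylate the transcription factor Mad, which enters the nucleus with its partner Med. There they activate targets and, with the zinc-finger protein Schnurri (shn), silence brk, whose product represses Dpp targets. Spi is a secreted ligand of the EGF receptor, related to vertebrate TGF-alpha, and acts in many embryonic tissues.

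The DNA under the summits is shown first for 9 peaks at 7 of the genes, as it allows the sites to be compared directly. Each line gives 101 bases centred on the summit, on the strand of the gene, from the Release 6 genome (dm6), and capitals mark runs of 7 or more A or T. The windows shown hold no annotated UTR. The Mad window is chr2L:3153358-3153458, brk chrX:7307170-7307270, dpp chr2L:2433609-2433709, tkv chr2L:5270839-5270939 and sog chrX:15619446-15619546. The Dad windows are chr3R:17065170-17065270 (site 1) and chr3R:17056376-17056476 (site 2), and the spi windows are chr2L:19575775-19575875 (site 1) and chr2L:19572813-19572913 (site 2).
dpp: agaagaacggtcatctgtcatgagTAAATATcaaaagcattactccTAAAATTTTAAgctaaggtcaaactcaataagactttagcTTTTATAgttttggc
sog: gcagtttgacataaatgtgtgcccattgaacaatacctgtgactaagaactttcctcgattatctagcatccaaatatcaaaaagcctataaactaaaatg
tkv: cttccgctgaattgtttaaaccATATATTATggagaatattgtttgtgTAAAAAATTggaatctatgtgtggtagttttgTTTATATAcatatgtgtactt
Mad: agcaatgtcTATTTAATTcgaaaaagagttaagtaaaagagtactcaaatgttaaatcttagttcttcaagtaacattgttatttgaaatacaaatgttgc
brk: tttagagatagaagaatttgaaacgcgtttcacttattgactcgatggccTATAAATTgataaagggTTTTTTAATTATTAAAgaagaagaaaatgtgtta
Dad site 1: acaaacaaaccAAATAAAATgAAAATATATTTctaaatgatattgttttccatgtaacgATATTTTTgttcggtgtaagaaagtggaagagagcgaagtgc
Dad site 2: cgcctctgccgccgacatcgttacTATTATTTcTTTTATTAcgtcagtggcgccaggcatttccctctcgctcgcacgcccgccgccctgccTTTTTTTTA
spi site 1: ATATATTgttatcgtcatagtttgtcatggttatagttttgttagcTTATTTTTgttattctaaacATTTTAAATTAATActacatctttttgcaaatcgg
spi site 2: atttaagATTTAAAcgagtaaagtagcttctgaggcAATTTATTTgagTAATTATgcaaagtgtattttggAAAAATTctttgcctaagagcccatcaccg

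The 9 windows were picked to show the sites of most genes and are not a sample of the 26. Over all 26 summits, 19 (73.1%) had an A/T run of 7 or more bases within 50 bp, beside 85.4% of all thresholded peaks and 67.3% of pooled peaks that overlap none. The 7 without one were the put and sog peaks, the weaker Med peak and 4 shn peaks. Of the windows shown, sog alone held none. The first spi site had the lowest GC content, 23.8%, with 29 of its 101 bases in such runs. Mad followed with 25.7% but held 1 run of 9 bases. The brk window had 27.7% and held 2 runs, the longer of 16 bases. The second Dad site differed, with 54.5% GC, yet it also held 3 A/T runs. The sog window had 34.7% GC.

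Strength varied widely among the 26 peaks. In the thresholded list they scored between 108.2 and 551.2 (signalValue), and their median was 153.8, against 154.8 over all 3672 thresholded peaks. Of the 26, 13 stood among the 1836 strongest. Ranked by their strongest peak, the genes ran from shn (551.2) over Dad (339.0), Mad (277.7), spi (240.6), brk (223.1), Med (203.7), dpp (182.4), sog (147.2) and put (134.8) to tkv (124.1). The lowest thresholded peak of the genome had 107.0. Just above this limit lay a shn peak of 108.2, a Mad peak of 112.0 and a Med peak of 116.7. Just below it, in the pooled list, lay peaks of sog (101.2), tkv (95.9), sog again (93.3) and Med (90.1).

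**Figure D1:**
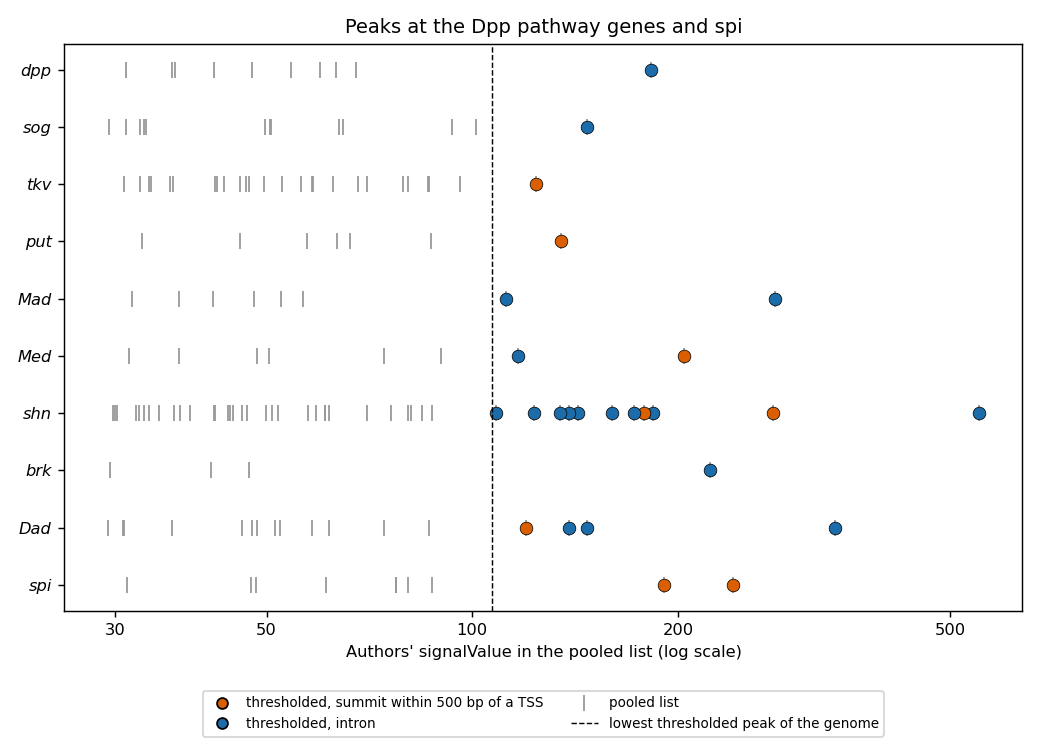
Each row is 1 gene and each mark 1 peak, placed by the authors' signalValue on a log axis; grey ticks are pooled peaks, circles are thresholded peaks (orange, summit within 500 bp of any TSS; blue, intron), and the dashed line is the lowest thresholded peak, at 107.0. The shn row holds 11 circles and the Dad row 4, while dpp, sog, tkv, put and brk have 1 each.

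All 10 genes had a thresholded peak, which follows from their choice. By the same rule 37.3% of all annotated genes and 40.1% of protein-coding genes had one. The share depends on gene length. It was 52.1% for protein-coding genes that span 10000 bp or more, the class of Mad, dpp, tkv, sog, shn and Dad, and 38.1% for shorter ones, the class of put, brk, Med and spi. Counting only summits within 500 bp of a gene's own TSS left 5 of the 10 genes, namely put, tkv, shn, Dad and spi, where 19.1% of protein-coding genes had one. Nothing is read from these counts, since peaks near the genes were used to choose them.

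The ligand gene dpp (FBgn0000490, chr2L:2428372-2459823, plus strand) had 1 thresholded peak, far from any of its 4 TSSs. It lay at chr2L:2433467-2433850 with its summit 5287 bp downstream of the first TSS, in an intron of 26006 bp. Its signalValue was 182.4 in the thresholded list, 94.0 in replicate 1 (rank 1531) and 85.9 in replicate 2 (rank 1396). The summits called in the replicates were 1 and 0 bp away from it. The other 9 pooled peaks of dpp stayed at or below 67.5. Among these was a peak of 63.1 at 11 bp upstream of TSS 3, so the intronic site scored above those at the gene's promoters.

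The gene sog (FBgn0003463, chrX:15603283-15633434, minus strand) encodes an extracellular antagonist that binds Dpp, the fly counterpart of vertebrate Chordin. It had 1 thresholded peak, at chrX:15619304-15619687, with the summit 7044 bp downstream of the nearer of its 2 TSSs in an intron of 10523 bp. Its signalValue was 147.2, with 82.2 in replicate 1 (rank 2052) and 69.5 in replicate 2 (rank 2034). A further intronic site, at chrX:15622834-15623217, scored 101.2 in the pooled list and missed the threshold. At that site the replicates differed, with 26.7 in replicate 1 (rank 16050) and 75.6 in replicate 2 (rank 1749). Within 500 bp of the 2 sog TSSs the strongest pooled peaks reached 33.1 and 64.8.

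The receptor genes had the weakest top peaks. Tkv is the type I receptor of Dpp, and tkv (FBgn0003716, chr2L:5219000-5271384, minus strand) had 1 thresholded peak at chr2L:5270697-5271080, 495 bp downstream of the first of its 4 TSSs. Its signalValue was 124.1, with 71.1 in replicate 1 (rank 2727) and 51.5 in replicate 2 (rank 3555). The distance is close to the 500 bp limit of the TSS class. The rest of tkv was dotted with weak peaks. The pooled list held 26 peaks by the rule, 24 of which overlapped no thresholded peak, the strongest of them at 95.9. TSSs 3 and 4 had pooled peaks of 86.1 and 70.2 within 500 bp, and TSS 2 had none.

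Put is the type II receptor. The gene put (FBgn0003169, chr3R:14619030-14625703, minus strand) had 1 thresholded peak at chr3R:14625581-14625964, 70 bp upstream of its single TSS. Its signalValue was 134.8, with 64.7 in replicate 1 (rank 3273) and 67.8 in replicate 2 (rank 2136). This promoter is shared. The summit lay 15 bp from the TSS of His4r, a replication-independent histone gene that runs the other way, so the peak cannot be given to either gene alone.

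Mad (FBgn0011648, chr2L:3146056-3159643, minus strand) encodes the receptor-activated Smad of the pathway and had 2 thresholded peaks, both in the same intron of 10214 bp. The stronger, at chr2L:3153339-3153483, lay 655 bp upstream of the second of the gene's 2 TSSs and 6890 bp separate these TSSs. Its signalValue was 277.7, with 134.8 in replicate 1 (rank 747) and 131.0 in replicate 2 (rank 649). The summits of both replicates fell within 1 bp of it. The weaker, at chr2L:3158514-3158897, lay 937 bp downstream of the first TSS with a signalValue of 112.0, and ranked 3365 and 3513 in replicates 1 and 2. The strongest pooled peak within 500 bp of the first TSS reached 52.4, and the second TSS had none in that range.

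Med encodes the partner Smad of Mad. Both thresholded peaks assigned to Med (FBgn0288966, chr3R:31611046-31615375, plus strand) lay upstream of it, inside the neighbouring gene CycG, which encodes a cyclin and is read from the other strand. The stronger, at chr3R:31609649-31610032, had a signalValue of 203.7 and ranked 1072 and 1297 in replicates 1 and 2. Its summit was 1205 bp from the Med TSS but 26 bp from a CycG TSS. The weaker, at chr3R:31608276-31608659, was 2578 bp upstream of Med with a signalValue of 116.7. It ranked 2312 in replicate 1 and 7774 in replicate 2. At the Med TSS itself, pooled peaks 237 and 23 bp upstream reached 90.1 and 74.3, below the threshold. If each peak was given to its nearest gene alone, neither Med nor put had a thresholded peak.

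The repressor gene brk (FBgn0024250, chrX:7307939-7311132, plus strand) had 1 thresholded peak at chrX:7307028-7307411, 719 bp upstream of its only TSS. Its signalValue was 223.1, with 150.9 in replicate 1 (rank 584) and 76.3 in replicate 2 (rank 1721). The replicates placed the summit 47 bp to either side of it. The strongest of the other 3 pooled peaks of brk reached 47.1. By annotation the site is intronic, because brk lies within introns of CG1677 and lncRNA:CR44357 on the other strand, but the nearest TSS is that of brk.

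Dad encodes the inhibitory Smad, which is itself induced by Dpp signalling and limits it. Dad (FBgn0020493, chr3R:17054007-17070408, plus strand) had 4 thresholded peaks, and the strongest was deep inside the gene. It lay at chr3R:17065121-17065261, 10323 bp downstream of the nearer of the 2 TSSs in an intron of 3509 bp. Its signalValue was 339.0, with 187.5 in replicate 1 (rank 382) and 142.0 in replicate 2 (rank 550). A second peak of 138.3 overlapped it, its summit 10524 bp from the TSS. A further one, of 147.1, lay at chr3R:17056234-17056617 in an intron 1529 bp from a TSS. The peak at the first TSS, with its summit 75 bp downstream in the 5' UTR, was the weakest at 119.6. It ranked 1655 in replicate 1 and 5123 in replicate 2. For the overlapping pair the nearest TSS is that of Ns1, 7455 and 7254 bp away, and the summits lay in Dad.

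The EGF receptor ligand gene spi (FBgn0005672, chr2L:19567900-19577315, minus strand) had 2 thresholded peaks, each just upstream of an internal TSS. The first, at chr2L:19575633-19576016, lay 238 bp upstream of the second of the gene's 3 TSSs. Its signalValue was 240.6, with 137.0 in replicate 1 (rank 722) and 110.2 in replicate 2 (rank 882). The second peak, at chr2L:19572671-19573054, lay 253 bp upstream of TSS 3 with a signalValue of 190.7, and ranked 1993 and 1247 in replicates 1 and 2. The first TSS had only pooled peaks within 500 bp, the strongest at 87.4. Both thresholded sites were also intronic for the longer transcripts, in an intron of 5418 bp.

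**Figure D2:**
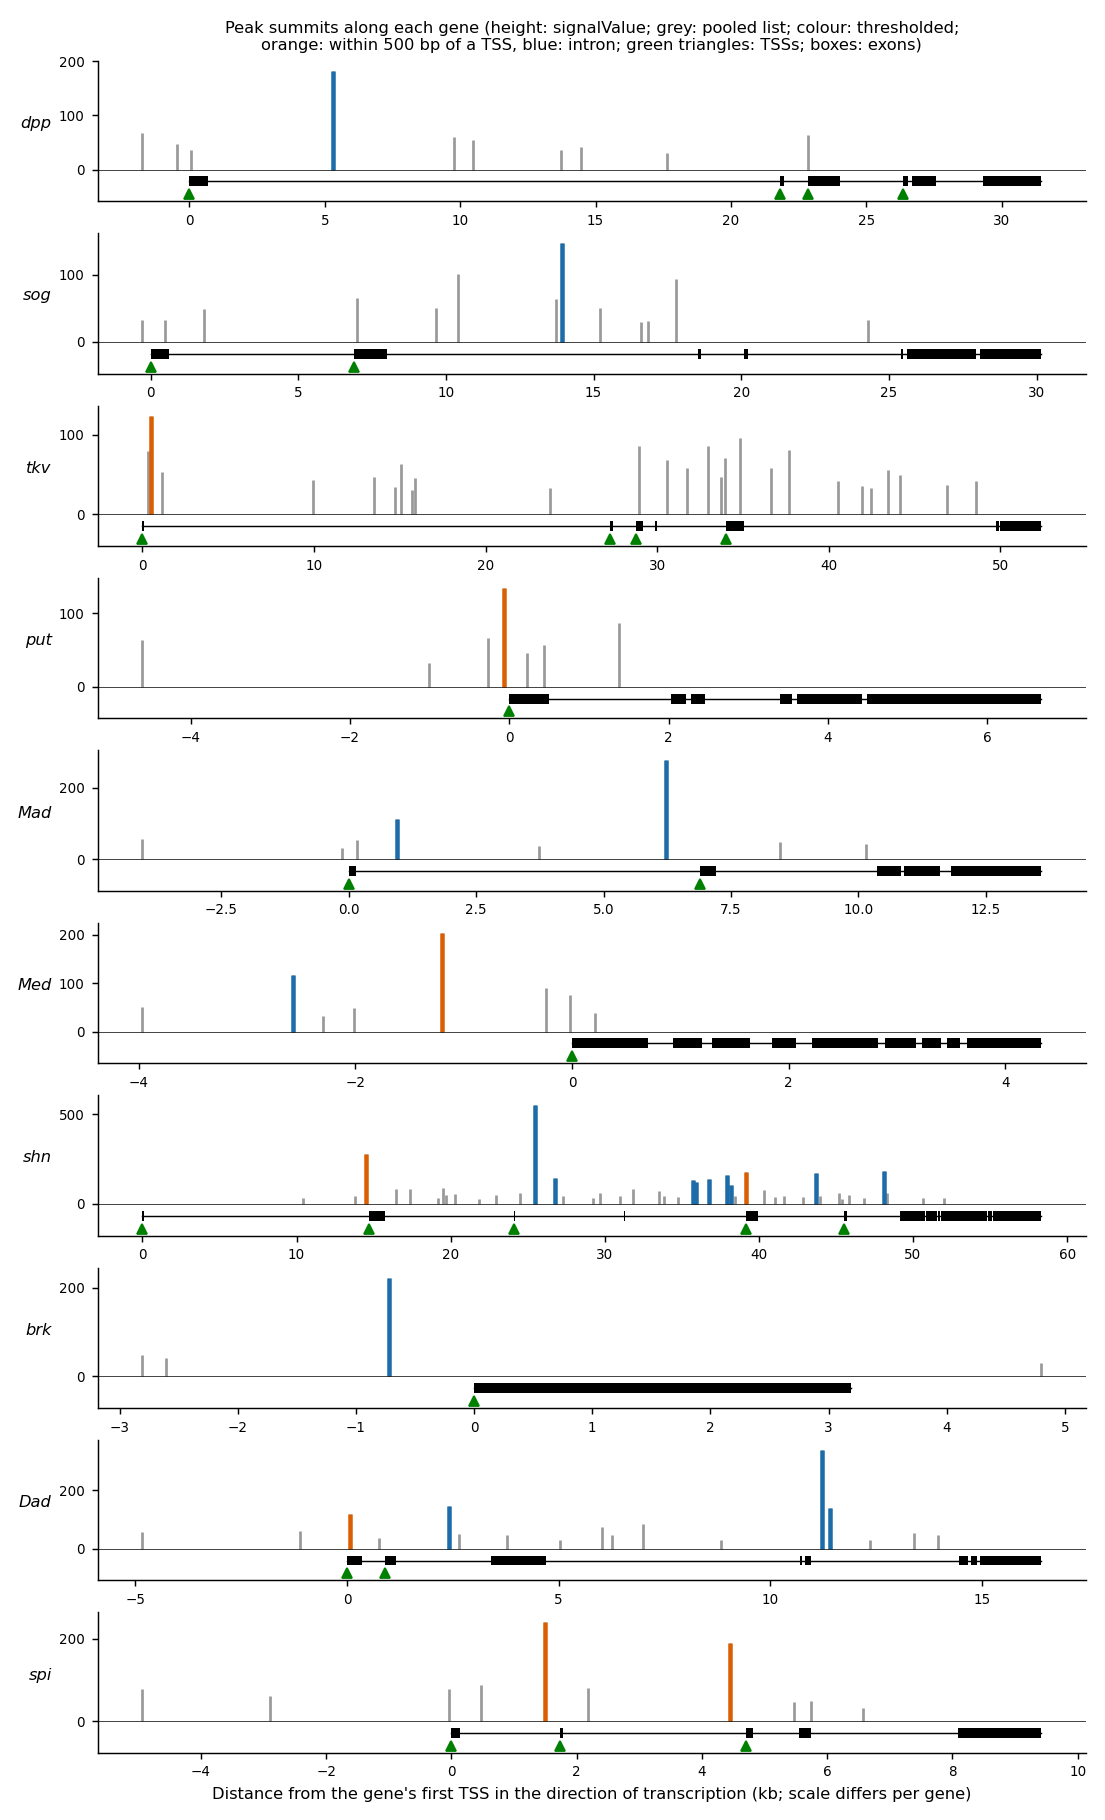
Summits of pooled peaks (grey) and thresholded peaks (orange, within 500 bp of a TSS; blue, intron) are drawn along each gene, with signalValue as the height and distance from the gene's first TSS in kb on the horizontal axis; triangles are TSSs and boxes exons. The tallest line stands within an intron and more than 500 bp from any TSS in dpp, sog, Mad, shn and Dad, and within 500 bp of an internal TSS in spi.

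The gene shn (FBgn0003396, chr2R:11159086-11217394, plus strand) held 11 of the 26 peaks, with signalValues from 108.2 to 551.2 and a median of 160.3. The strongest, at chr2R:11184451-11184674, lay 1330 bp downstream of TSS 3 of 5, in an intron. It had 258.9 in replicate 1 (rank 172) and 275.8 in replicate 2 (rank 142), the highest ranks of the 26. Next came a peak of 275.7 at chr2R:11173407-11173790, 204 bp upstream of the second TSS, with ranks of 606 and 681. A peak of 178.4 at chr2R:11198072-11198455 lay 12 bp upstream of TSS 4. The first TSS had no pooled peak within 500 bp, and its nearest pooled summit was 7653 bp away.

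Most other shn peaks formed a group in an intron of 17848 bp. It held 8 of the 11, including the peak at TSS 4. Their ranks differed more between the replicates than that of the strongest peak. The peak of 138.5 ranked 10204 in replicate 1 and 1595 in replicate 2. The neighbouring peaks of 134.2 and 123.0, whose summits are 200 bp apart, were matched to 1 and the same peak of replicate 2. When overlapping peaks were merged, the 26 peaks of the 10 genes formed 23 separate regions.

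In the thresholded list so many peaks in 1 gene were rare. Only 9 of 18277 genes held 11 or more thresholded peaks by the same rule, and 241 held 4 or more, the number in Dad. The cut at 11 is the number in shn, with overlapping peaks counted separately. With replicate 1 alone shn held 9 peaks, and with replicate 2 alone it held 10. How many genes reach these lower numbers, or remain as high after merging, is not given here. Long genes differed widely in number. Of 249 protein-coding genes that span at least as much as shn (58309 bp), 5 held 11 or more, the median was 1 and 110 held none. The gene tkv, nearly as long at 52385 bp, held 1. Over the 10 genes, 4 of which span under 10000 bp, the median was 1.5. Over the 1985 protein-coding genes that span 10000 bp or more it was 1, with genes that held none included. The 10 genes were chosen with a peak in each, so nothing is read from the higher median.

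**Figure D3:**
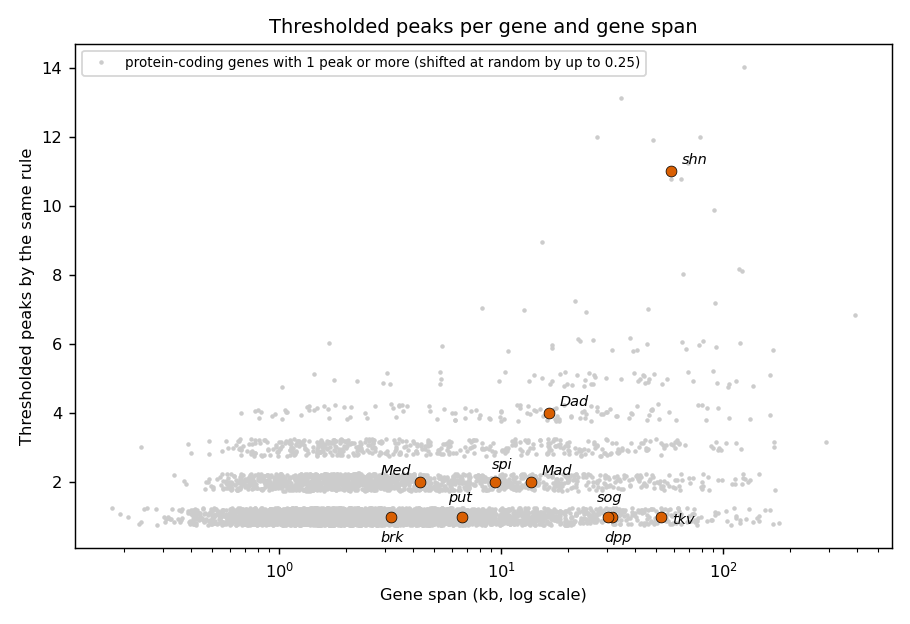
Each grey point is a protein-coding gene with 1 thresholded peak or more, by its span in kb (log axis) and its number of thresholded peaks, and orange circles are the genes described here. With 11 peaks shn stands far above dpp, sog and tkv, which have 1 peak each at spans of 30152 bp or more.

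Most of the 26 summits lay in introns. The intron class, which leaves out summits within 500 bp of any TSS, held 18 of 26 (69.2%). The TSS class held the remaining 8 (30.8%), and the other classes held none. Over thresholded peaks assigned by the same rule to any protein-coding gene, 30.6% were intronic and 61.2% in the TSS class. For protein-coding genes of 10000 bp or more these shares were 45.5% and 48.1%, beside 16 of 20 intronic (80.0%) at the 6 long genes described here. The peaks of a gene share a locus, 11 of them lie in shn, and the genes were chosen from these lists, so the difference was not tested. Without shn, 6 of 15 were in the TSS class.

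Measured from the gene itself, 21 of the 26 summits lay in an intron of the gene to which they were assigned. A further 4 lay upstream of it, at put, brk and Med, and 1 in the 5' UTR of Dad. Distances to the gene's nearest TSS ran from 12 to 10524 bp with a median of 1280 bp. For 21 of the 26 the nearest TSS in the genome belonged to the assigned gene; the exceptions were the put peak, both Med peaks and the overlapping pair in Dad. A peak was counted as shared when another gene spanned the summit or had a TSS within 1000 bp. This held for 4 of the 26 (15.4%), with His4r at put, CG1677 and lncRNA:CR44357 at brk, and CycG at both Med peaks. The Med summits lay outside Med and more than 1000 bp from its TSS, so by this measure CycG alone held them. Counting summits with 2 or more genes that spanned them or had a TSS within 1000 bp gave 2 of the 26 (7.69%), at put and brk, beside 38.2% of all thresholded peaks.

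Each of the 26 peaks overlapped a listed peak in both replicates, but 2 neighbouring shn peaks were matched to the same one in replicate 2. Matching each of the 26 to the overlapping peak with the nearest summit, 23 were among the 3672 strongest peaks of replicate 1 and 23 among those of replicate 2. For 21 of 26 (80.8%) this held in both, beside 69.4% of all thresholded peaks. The 21 include the shn peak of 134.2, whose match in replicate 2 is the shared one, with its summit 199 bp away. The threshold was derived from both lists, so this is no independent check. The 5 exceptions were the weaker Med peak, the TSS peak of Dad and 3 shn peaks. Summits shifted by a median of 7 bp in replicate 1 and 14 bp in replicate 2, and by at most 83 and 199 bp. Across the 26 peaks Spearman's rho between the 2 replicates' signalValues was 0.602; peaks within a gene are not independent, and in 1 case both share a matched peak.

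**Figure D4:**
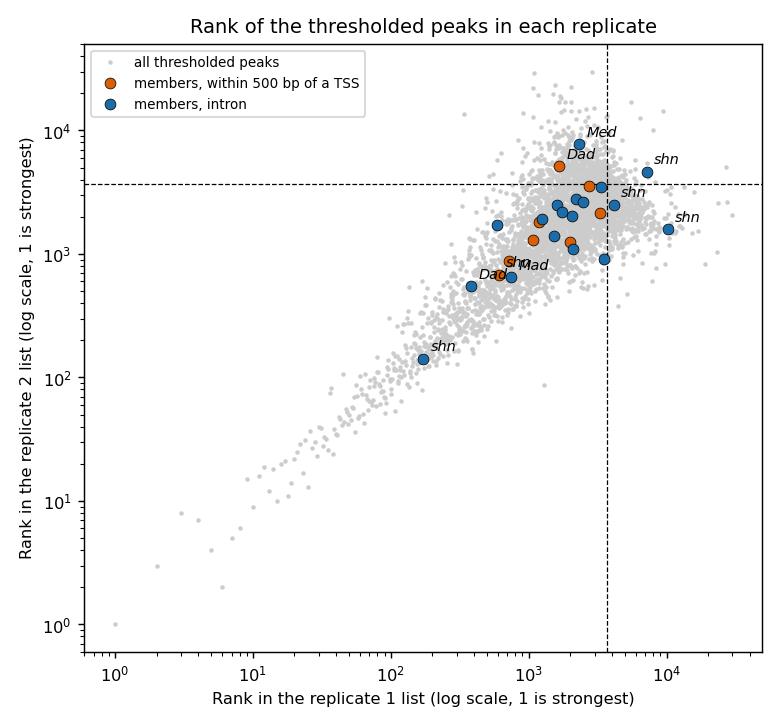
Rank of each thresholded peak in the replicate 1 and replicate 2 lists on log axes, with all such peaks in grey and those at the 10 genes in colour (orange, within 500 bp of a TSS; blue, intron); dashed lines mark rank 3672. Among the coloured points the strongest shn peak, at ranks 172 and 142, stands nearest to the lower left, and 5 lie beyond a dashed line.

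Peak width in the deposited lists was mostly fixed. Of the thresholded peaks, 514 were narrower than the common width of 384 bp and none were wider. The narrow ones had a median rank of 258.5. Among the 26 there were 3 narrow peaks, the strongest ones of Dad, Mad and shn, with widths of 141, 145 and 224 bp.

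GC content at the summits spread widely. Within 50 bp of the 26 summits the median GC content was 35.6% (range 23.8 to 62.4), against 32.7% over all thresholded peaks and 41.6% over the remaining 25545 pooled peaks, those without any overlap. At 400 bp from the summits the median was 40.1%, 43.6% and 41.6% for the 3 sets. Under 30% GC were 8 of the 26 (30.8%), 39.5% of thresholded and 14.8% of the other pooled peaks. The longest A/T run in the window had a median of 9, 10 and 8 bases. The highest GC content, 62.4%, was at the shn peak 12 bp from TSS 4, and the lowest, 23.8%, at the strongest shn and spi peaks.

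**Figure D5:**
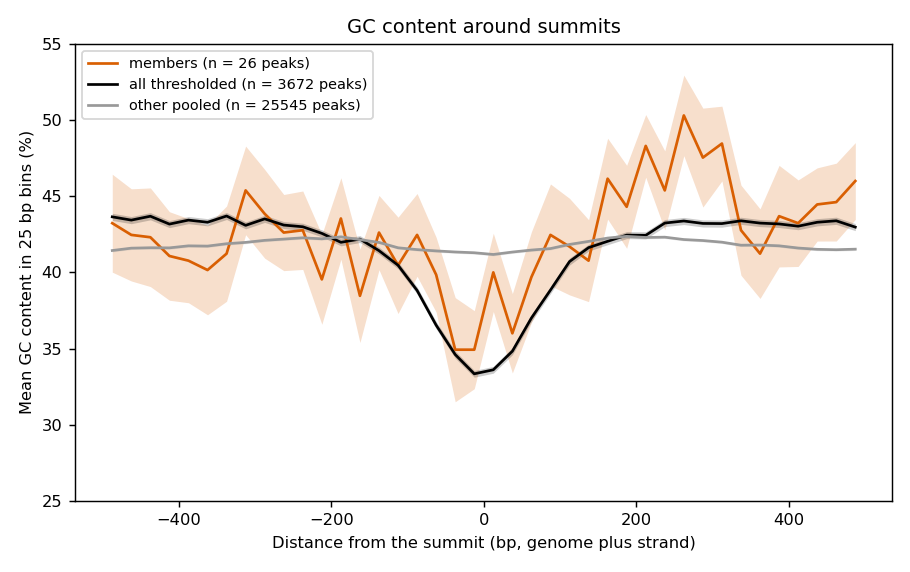
Mean GC content in bins of 25 bp within 500 bp of the summit for the 26 peaks described here (orange), all thresholded peaks (black) and pooled peaks that overlap none (grey), with shading of 1 standard error over peaks. The black line dips at the summit and the grey line stays nearly level. The orange line is uneven there, with 34.9% in the bin at -12.5 bp and 40.0% at 12.5 bp, and has a wide band. Of the 26 peaks 11 lie in shn and some overlap, so the orange band treats dependent peaks as independent.

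Words of DNA-binding proteins were searched on both strands. For the Brk repressor the word GGCGCC was taken with its variants, which read GGCGTC or otherwise GGCGCT or otherwise GGCGTT. Any of them occurred within 50 bp of 2 of the 26 summits, in Dad and shn. The shares were 6.89% of thresholded and 10.4% of the other pooled peaks. In the second Dad site shown above the word is ggcgcc. Within 150 bp, 8 of the 26 had such a word, namely all 4 of Dad, both of Mad and 2 of shn, and the shares were 23.3% and 27.7%. The silencer element bound by Mad, Med and Shn, best known from brk, was not found within 150 bp of any of the 26, and is rare at peaks in general (0.191% of thresholded peaks). The palindromic Smad word GTCTAGAC was not found either (0.245% of thresholded peaks).

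Among promoter words, TATAAA stood within 50 bp of 6 of the 26, at brk, dpp, tkv, sog, the weaker Mad peak and 1 shn peak, and of 23.4% of thresholded peaks. The AT-rich word TTTAAAA stood at 2 of 26, in spi and shn, and at 13.9% of thresholded peaks. GAGAG stood at 5 of 26, in Dad and shn, and at 10.9%. The BEAF-32 word TCGATA and TATCGATA, the DNA replication-related element that contains it, stood at none of the 26 and at 8.01% and 2.02% of thresholded peaks. CAGGTA, a word of the early embryonic activator Zelda, stood at the sog site alone and at 1.91% of thresholded peaks. All these counts are for 50 bp. Within 150 bp TATAAA stood at 11 of 26 (46.0% of thresholded peaks), TTTAAAA at 4 (29.3%) and GAGAG at 14 (35.7%). In that window TCGATA stood at 1, the stronger Med peak (21.0%), and TATCGATA at none (6.62%). CAGGTA then stood at 2, in sog and shn (6.07%). Matches of this kind describe the letters in a window and do not show binding by the named factors.

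Peaks that missed the threshold were numerous at these genes. The pooled list held 146 peaks by the rule, and 111 of them overlapped no thresholded peak. They scored between 29.3 and 101.2, and their median was 48.2. Of these 111, 72 (64.9%) lay in introns and 28 (25.2%) within 500 bp of a TSS. The number differed between genes, with 29 in shn, 24 in tkv, 12 in Dad and 3 at brk.

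Other genes of both pathways were examined from a list of 58. By the same rule 28 of them (48.3%) had a thresholded peak, next to 40.1% of all protein-coding genes. Of the 28 that span 10000 bp or more, 16 had one, where the share of all such genes was 52.1%. The list was also drawn up with earlier results of these data known, and no test was made.

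The counts per role stand beside the same 40.1% of all protein-coding genes. The groups are small, so nothing is read from them. On the Dpp side, 5 of 10 genes for other ligands and extracellular modulators had a peak. The highest was at gbb, a ligand gene of the same family, with 819.9 at 1143 bp upstream, though the nearest TSS there was that of asRNA:CR45928. The next was at dlp, which encodes a glypican, with 288.4 in an intron, nearest to lncRNA:CR45888. All 3 other receptor genes had one, led by babo with 309.8 and wit with 174.4. The babo peak lay nearest to the TSSs of CG33199 and CG8229. At the remaining receptor gene, sax, the peak of 121.3 lay nearest to the TSS of Nop17l. Intracellular factors had 5 of 7, led by nej, a histone acetyltransferase gene, with 581.4 and Smox, the activin Smad gene, with 305.0. Both of these lay closer to another TSS, those of lncRNA:CR42657 and CG17982. Activin-type ligands had 1 of 4, myo, with 137.6. Target genes had 3 of 15, among them tin with 391.3, 226 bp upstream of its TSS, and Ance with 241.7, nearest to Smg5.

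On the EGF side, the counts stand beside the same 40.1% and the groups are again small. Of other ligand genes 2 of 3 had a peak. Krn had 273.8, 115 bp upstream of a TSS at the same position as that of Ndfip, and vn had 160.1 in an intron, nearest to mad2. The gene of the secreted inhibitor Argos, aos, had 3 peaks, up to 443.8 in an intron. Ligand processing genes had 2 of 3, S with 396.5 and ru with 121.4. Receptor and relay genes had 4 of 8, and the receptor gene Egfr itself had none. The kinase gene Raf carried 12 peaks, up to 653.9 in an intron. The next, drk, had 380.8, nearest to mars. Nuclear factors and targets had 2 of 4, aop with 257.5 and pnt with 194.6, the latter nearest to lncRNA:CR46090. For comparison, the strongest peak of spi had 240.6.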

How the data were processed

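Per the labels, chromatin of CG12299-GFP embryos was sheared by sonication to a size range of 200 to 800 bp, and the build was dm6. Per the deposited manifests, peaks were called on each replicate and on both together against 1 control alignment, which was not analysed here. Aligner and caller: not given in the sources used here. Used were the authors' deposited score, signalValue, and, as an alternative ranking only, the deposited -log10 q-value. A repeated position in the pooled and in the replicate 2 list was counted once.

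Genes and TSSs came from Ensembl release 115 without transposable elements. Each summit was classed as TSS if within 500 bp of one, then by the untranslated, coding or other exon it hit, then as intronic or intergenic. Introns were measured in the transcript with the most exons among those with the summit in an intron, the first by identifier where tied. Sequence came from the RefSeq Release 6 genome, whose arms contain all peaks. Members and lists were chosen with earlier results of these data known. All 10 genes are named, and other pathway genes by the 2 strongest peaks per role, besides Egfr and sax. Of 71 pathway symbols 68 were matched. No test was made, and depth is unknown. Peak assignment was tested on simulated data. Python 3.11.15, numpy 2.4.6, scipy 1.17.1, pandas 2.3.3 and matplotlib 3.10.9 were used. Alternatives changed the reach, threshold, replicate, overlap, window and assignment.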

Additional observations from a re-analysis of the deposited data

How the results depend on the processing

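With either replicate alone (its 3672 strongest peaks), 10 of 10 genes had a peak, and 26 peaks were assigned with replicate 1 alone and 26 with replicate 2 alone. These equal totals hide changes per gene. With replicate 1 alone tkv held 2 peaks, Med 3 and shn 9. With replicate 2 alone dpp held 2, sog 3, Med 1, shn 10 and Dad 3. The other genes kept their number. Peaks within 500 bp of a TSS numbered 7 to 9, shared peaks 3 to 5 and other pathway genes with a peak 28 to 29. With the 1836 strongest thresholded peaks alone, 7 genes kept a peak (put, tkv and sog did not), with 13 peaks, 5 near a TSS and 2 shared. With the nearest gene only, 8 genes and 21 peaks were left, 1 of them shared, and 14 pathway genes in place of 28. The share of all genes under that assignment is not given here, so nothing is read from these counts. With a reach of 10000 bp shared peaks rose from 4 to 8, and when genes that merely span the summit were dropped and the TSS distance was set to 500 bp they numbered 2. Without shn, an alternative chosen after seeing the data, 15 peaks were left. The median GC content stayed between 31.7% and 39.4% in all 6 alternatives run for it. No paired analysis was possible because the study has 1 group.

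The main limits are the unknown depth, the fixed width of most peaks, the selection of the genes from these lists, and the presence of 1 group with 2 replicates and no second condition.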
